A study of Mus musculus with 12 samples.

Results

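Epithelial cells of the bladder lining are held together by tight junctions, adherens junctions and desmosomes, and 10 genes of these junctions are described here in newborn mouse bladder. They are the claudin genes Cldn3, Cldn4, Cldn7 and Cldn8, occludin (Ocln), zonula occludens 3 (Tjp3), E-cadherin (Cdh1), Epcam, desmoplakin (Dsp) and plakophilin 1 (Pkp1). They are read by 17 of the 45037 probe sets on the array other than controls, those whose only gene symbol is one of these 10. Whole bladders of FVB/N mice were taken at postnatal day 1 and measured on 12 one-colour Affymetrix arrays, 1 unpooled RNA sample per array. The groups were SMGA/EGFP transgenic (3 arrays), SMAA/EYFP transgenic (3 arrays) and wild type (6 arrays), all labelled male. In the first line the promoter of smooth muscle gamma actin drives a green fluorescent protein, and in the second that of smooth muscle alpha actin drives a yellow one, so neither reporter is aimed at the epithelium. Transgenic pups were sired by transgenic males on FVB/N females, so sire, litter and genotype cannot be told apart. The study asked what expression of the transgene does to the expression profile of the bladder.

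The urothelium is a layered epithelium that keeps urine out of the tissue below it. Tight junctions seal the space between its cells: claudins and occludin span the membrane and set how leaky the seal is, and zonula occludens proteins tie them to actin. Adherens junctions hold neighbouring cells together through E-cadherin, and desmosomes link their keratin filaments through desmoplakin and plakophilins, which lets a sheet withstand stretch.

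Values are linear intensities per probe set, and the number of arrays limits the precision. Wild type 4 did not show a male profile, with an Xist intensity of 29604 against 80.1 to 250.4 on the other 11 arrays and Kdm5d at 28.0 against 938 to 1465, and it is kept below. The urothelium was clearly present, with the uroplakin Upk1b at intensities of 40960 to 52381 on all arrays. The keratins Krt18 and Krt8, which are less specific to it, were at 37194 to 57045. Of the genes that mark other epithelia, skin filaggrin, Flg, was at 3.04 to 100.3, and the gut factors Cdx1 and Cdx2 at 4.93 to 15.4 and 19.3 to 118. Other genes of the same lists were brighter: gut Lgals4 and Cdh17 were at 221 to 465 and 168 to 351, and the skin keratin Krt10 at 1204 to 1801. Krt15 and Krt14, keratins of basal cells in skin and other layered epithelia, were at 20809 to 38237 and 3235 to 17313. The labels also carry database record numbers: the first 6 hold SMGA/EGFP and wild type 1 to 3, and the last 6 hold SMAA/EYFP and wild type 4 to 6. These are called the first and the last run below. The labels do not call them batches, and between SMGA/EGFP and SMAA/EYFP genotype and run cannot be told apart.

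No junction gene differed between the groups past the threshold. In both transgenic groups the brightest probe set of every gene that was tested lay a little above wild type. Probe sets were tested where their mean over the 12 arrays exceeded the median of all means, log2 8.02 on the scale log2(intensity + 16). That left 13 of the 17 probe sets and 9 of the 10 genes, since the mean of each Cldn3 probe set lay below that median. In SMGA/EGFP against wild type, 0 of the 13 passed an adjusted p of 0.05 (limma, Benjamini-Hochberg), where 0.0622% of all 22518 tested probe sets did, and 0 had an unadjusted p under 0.05, against 6.94% of all. The 9 genes had a median log2 difference of 0.17, from 0.10 to 0.65, beside -0.01 for all tested probe sets. Of all 22518, 10607 lay above wild type. In SMAA/EYFP against wild type, 0 of 13 passed, as did 0% of all, and 1 (Tjp3) had an unadjusted p under 0.05, against 4.81% of all. There the median of the 9 genes was 0.19, from 0.06 to 0.50, beside 0.003 for all tested probe sets, of which 11430 lay above wild type. In each comparison 12 of the 13 member probe sets lay above wild type. Both comparisons use the same 6 wild-type arrays, and a higher share of epithelium and more RNA per epithelial cell cannot be told apart in whole bladder. Intervals show what sizes the design leaves: in SMGA/EGFP, 12 of the 13 intervals (95%) lay within 1 log2 unit either side of 0, and in SMAA/EYFP, 11 of 13 did. Across all 9 genes the arrays of each transgenic group overlapped with those of wild type, where 2.73% and 3% of all tested probe sets did not overlap.

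**Figure D1:**
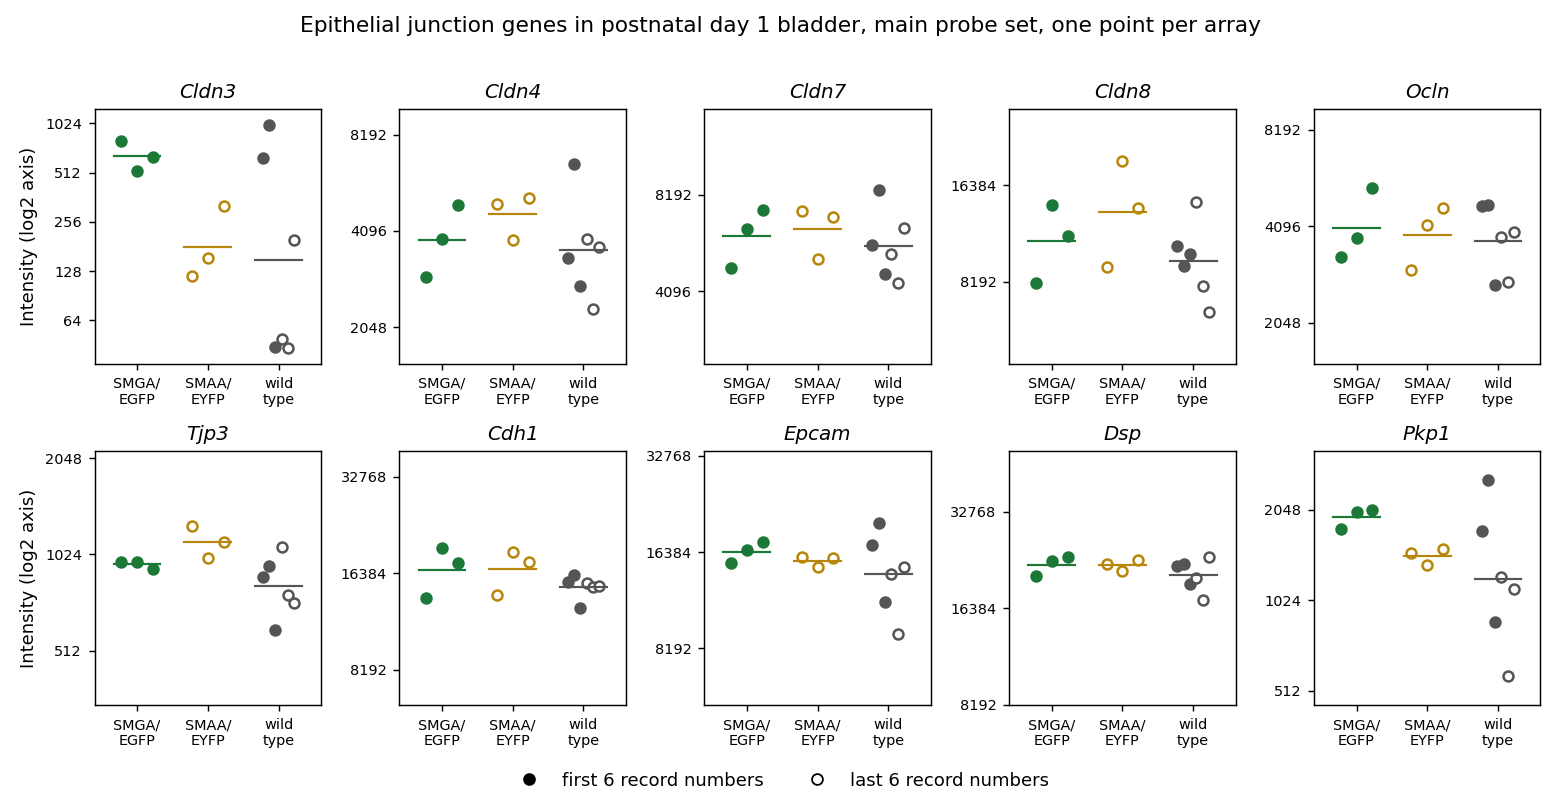
Intensity on a log2 axis of the main probe set of each junction gene, 1 point per array, for SMGA/EGFP, SMAA/EYFP and wild type; filled points are the first 6 database record numbers, open points the last 6, and lines are means taken on the log scale. The groups overlap in most panels, Cldn3 runs from 43.3 to 1002, and wild type 5 or wild type 3 is at the bottom for 9 of the 10 genes.

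Cldn4 and Cldn7, claudins of barrier-forming epithelia, followed each other closely from array to array. Cldn4 had intensities of 2944, 3873 and 4938 in SMGA/EGFP, 4981, 3846 and 5188 in SMAA/EYFP, and 2331 to 6641 with a median of 3511 in wild type. Cldn7 had 4841, 6395 and 7339.7 in SMGA/EGFP, 7282, 5152 and 6988 in SMAA/EYFP, and 4341 to 8494 with a median of 5525 in wild type. For both genes wild type 2 was the brightest array and wild type 5 the dimmest, so wild type alone spanned the whole range and both transgenic groups lay inside it. Against wild type, Cldn4 in SMGA/EGFP was at a log2 difference of 0.10 ± 0.26 (SE, n = 3 and 6; limma adjusted p = 0.948) and in SMAA/EYFP at 0.36 ± 0.26 (adjusted p = 0.991). Cldn7 in SMGA/EGFP was at 0.11 ± 0.20 and in SMAA/EYFP at 0.16 ± 0.20. Neither gene's differences exceeded the spread within wild type, which was 0.51 for Cldn4 and 0.35 for Cldn7 (SD, log2, n = 6).

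Cldn8, a claudin best known from the kidney collecting duct, where it limits the passage of cations, varied in its own way. Its intensities were 8106, 14221 and 11353 in SMGA/EGFP, 9087, 19473 and 13889 in SMAA/EYFP, and 6592 to 14508 with a median of 9584 in wild type. SMAA/EYFP 2 stood above every other array and wild type 4 was second, while wild type 6 was lowest. SMGA/EGFP stood 0.22 ± 0.26 from wild type on the log2 scale (adjusted p = 0.861). SMAA/EYFP stood 0.50 ± 0.26 from it (adjusted p = 0.991), and 0.23 without SMAA/EYFP 2.

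Ocln, the first transmembrane tight junction protein to be identified, showed no separation of the groups. Intensities of its brighter probe set were 3272, 3759 and 5394 in SMGA/EGFP, 2986, 4121 and 4666 in SMAA/EYFP, and 2682 to 4757 with a median of 3850.1 in wild type. SMGA/EGFP stood 0.14 ± 0.21 (log2) from wild type and SMAA/EYFP 0.06 ± 0.21. The second, dimmer probe set gave -0.07 ± 0.23 in SMGA/EGFP and 0.30 ± 0.23 in SMAA/EYFP, so the 2 probe sets of the gene disagreed in sign in the first comparison, although they moved together over the arrays (r = 0.78, n = 12).

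Tjp3, the scaffold protein that binds claudin and occludin tails, came nearest to a difference in SMAA/EYFP. It had intensities of 970.5, 967 and 924 in SMGA/EGFP, 1254, 999.8 and 1117 in SMAA/EYFP, and 596 to 1079 with a median of 819 in wild type. Wild type 4 alone reached into the SMAA/EYFP range, and wild type 3 was dimmest. SMAA/EYFP was above wild type by a log2 difference of 0.45 ± 0.16 (interval 0.12 to 0.79; unadjusted p = 0.0116, limma adjusted p = 0.991), which did not pass. SMGA/EGFP was at 0.17 ± 0.16 (adjusted p = 0.822). Against only the 3 wild-type arrays of its own run, SMAA/EYFP was at 0.38 ± 0.18.

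Cdh1, the adhesion molecule at the core of adherens junctions, was second only to Dsp in how little it varied, the brightest array being 1.54 times the dimmest. It had intensities of 13694, 19628 and 17693.5 in SMGA/EGFP, 14040.1, 19165 and 17786 in SMAA/EYFP, and 12774 to 16171 with a median of 15116 in wild type. In each transgenic group 2 arrays lay above all wild-type arrays and 1, SMGA/EGFP 1 or SMAA/EYFP 1, lay below 5 of them. Against wild type, SMGA/EGFP was at a log2 difference of 0.21 ± 0.13 (interval -0.06 to 0.49; adjusted p = 0.758) and SMAA/EYFP at 0.19 ± 0.13 (adjusted p = 0.991).

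Epcam, an epithelial surface protein that binds to Cldn7, spread more widely in wild type than in either transgenic group. Its main probe set had intensities of 15177, 16569.65 and 17567.5 in SMGA/EGFP, 15847, 14675 and 15692 in SMAA/EYFP, and 9118 to 20246 with a median of 14361 in wild type. The log2 SD was 0.12 in SMGA/EGFP, 0.05 in SMAA/EYFP and 0.43 in wild type, with wild type 2 above and wild type 3, 4 and 5 below all transgenic arrays. SMGA/EGFP stood 0.25 ± 0.19 (log2) from wild type and SMAA/EYFP 0.14 ± 0.19. A second Epcam probe set did not follow the first over the arrays (r = -0.22, n = 12) and was at 0.05 ± 0.23 in SMGA/EGFP and -0.24 ± 0.23 in SMAA/EYFP, so values of this gene rest on the main probe set.

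Dsp, which anchors keratin filaments at desmosomes, varied least of all members. The main probe set had intensities of 20614, 22946 and 23757 in SMGA/EGFP, 22504, 21349 and 23238 in SMAA/EYFP, and 17449.6 to 23738 with a median of 21263.5 in wild type. Wild type 3, 4 and 5 lay below all 6 transgenic arrays and the other 3 wild-type arrays among them. SMGA/EGFP stood 0.13 ± 0.10 (log2) from wild type and SMAA/EYFP 0.10 ± 0.10. The other 2 probe sets gave 0.21 ± 0.10 and 0.13 ± 0.28 in SMGA/EGFP and 0.08 ± 0.10 and 0.46 ± 0.28 in SMAA/EYFP.

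Pkp1, a plakophilin that strengthens desmosomes of stratified epithelia, had the widest range after Cldn3. It had intensities of 1767, 2023 and 2048 in SMGA/EGFP, 1469.8, 1340.1 and 1518 in SMAA/EYFP, and 572 to 2582 with a median of 1175 in wild type. Wild type 1, at 1739.9, and wild type 2, at 2582, lay just under and above SMGA/EGFP, and the other 4 wild-type arrays lay below both transgenic groups. Against all wild type, SMGA/EGFP was at a log2 difference of 0.65 ± 0.32 (interval -0.05 to 1.34; adjusted p = 0.724) and SMAA/EYFP at 0.24 ± 0.32 (adjusted p = 0.994). Against wild type of the same run, SMGA/EGFP was at 0.28 ± 0.32 and SMAA/EYFP at 0.61 ± 0.32, so the order of the 2 groups depended on which wild-type arrays were used.

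**Figure D2:**
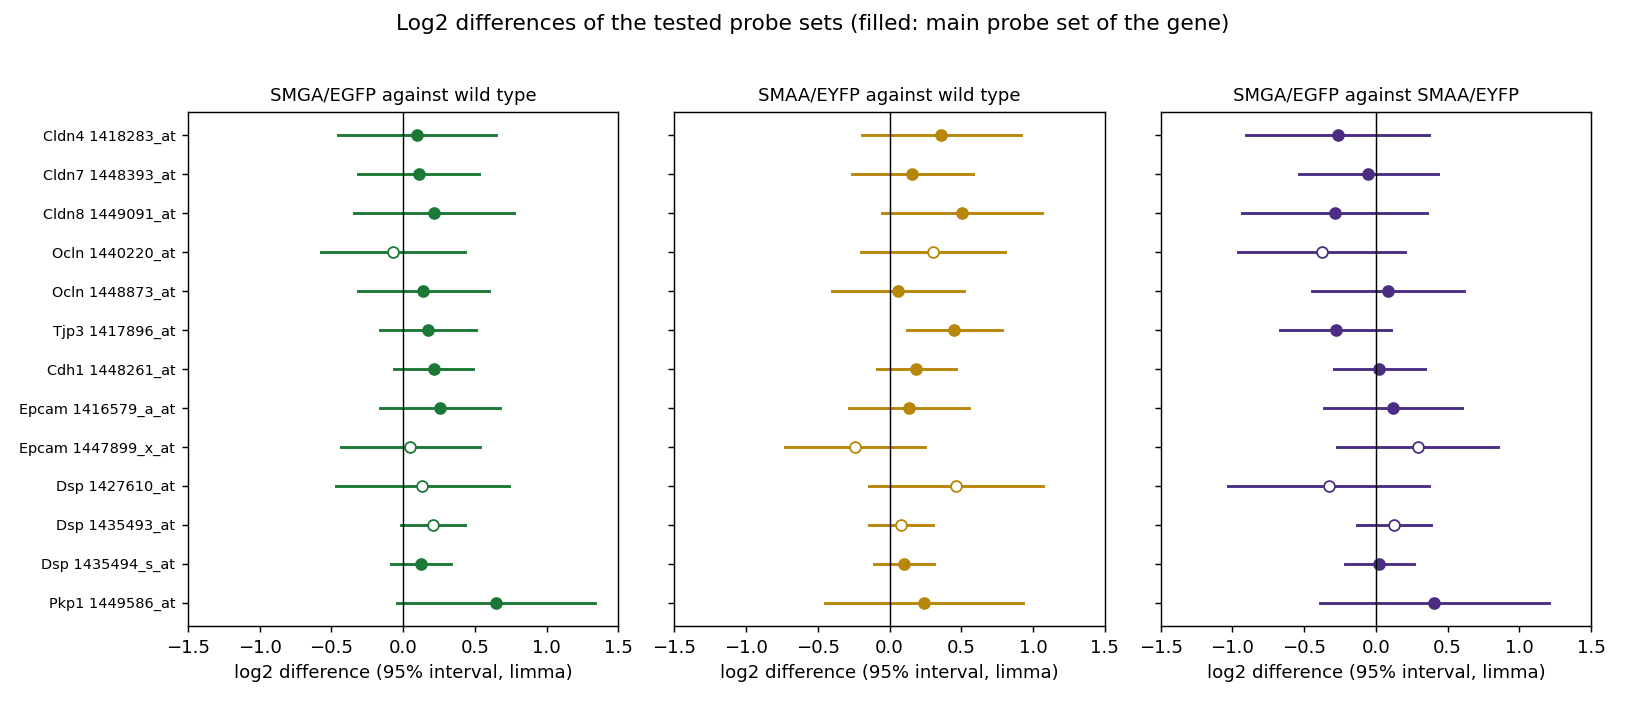
Log2 differences with 95% limma intervals for the 13 tested probe sets for SMGA/EGFP over wild type, SMAA/EYFP over wild type, and SMGA/EGFP over SMAA/EYFP; filled points are the main probe set of each gene. Most points in the first 2 panels lie right of 0, and of their intervals only that of Tjp3 in SMAA/EYFP, 0.12 to 0.79, does not include 0.

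Between the transgenic groups, no junction gene differed past the threshold either. Of the 13 probe sets, 0 passed and 0 had an unadjusted p under 0.05 (limma), where 0.0799% and 9.32% of all tested did. Among the 9 genes, 5 were higher and 4 lower in SMGA/EGFP than in SMAA/EYFP, with a median log2 difference of 0.02. The arrays did not overlap for 2 of 13 probe sets, near the 14.5% of all tested (6.49% higher, 8.06% lower): Tjp3 was lower in SMGA/EGFP (-0.28 ± 0.18, adjusted p = 0.644) and Pkp1 higher (0.41 ± 0.37, adjusted p = 0.749). The intervals of these differences, -0.67 to 0.10 for Tjp3 and -0.39 to 1.21 for Pkp1, leave sizes in either direction. With both transgenic groups set against wild type, the main probe sets of the 9 genes were all above wild type, with a median of 0.20. Of all 22518 tested probe sets, 10766 were above wild type. Of the 13, 0 passed (0.00444% of all). Tjp3 had the 1 unadjusted p under 0.05 (limma), where 4.18% of all did, at 0.31 ± 0.13 (adjusted p = 0.996).

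Cldn3, a sealing claudin, ranged far more widely than the rest: it was bright on some arrays and dim on others. Its brightest probe set had intensities of 797, 526 and 638 in SMGA/EGFP, 119.6, 153 and 318 in SMAA/EYFP, 629, 1002 and 43.7 in wild type 1 to 3, and 49.1, 43.3 and 199 in wild type 4 to 6. All 3 SMGA/EGFP arrays and wild type 1 and 2 were thus above every other array, and wild type 3 lay with wild type 4 and 5 despite its record number. The brightest array was 23.1 times the dimmest, against 1.36 times for Dsp and 4.51 times for Pkp1. On those 5 arrays 61.1% to 69.6% of probe sets were dimmer than this one, and on the other 7 between 18.8% and 53.7% were. Pkp1 was split over the same arrays in a narrower range, at 1740 to 2582 on those 5 and 572 to 1518 on the other 7. Detection calls were not used here, so whether the low Cldn3 values are above background is unknown.

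The other 3 Cldn3 probe sets were also highest on SMGA/EGFP 1 to 3 and wild type 1 and 2. One had intensities of 714, 537 and 499 in SMGA/EGFP, 86.9, 35.5 and 50.8 in SMAA/EYFP, 588, 952 and 15.85 in wild type 1 to 3, and 20.5, 17.4 and 86.0 in wild type 4 to 6. Over the 12 arrays the 4 probe sets correlated at r = 0.71 to 0.95. In all 4 the SMGA/EGFP arrays lay above the SMAA/EYFP arrays without overlap, as 6.49% of the tested probe sets did, and in all 4 they overlapped with wild type. None reached the filter: the brightest had a mean of log2 7.99, just under 8.02, and the dimmest member probe set that passed was one of Dsp at 8.43.

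With no filter and all 12 arrays kept, 0 of the 4 Cldn3 probe sets passed in any comparison. Of all 45037 probe sets, 0.0289% passed for SMGA/EGFP over wild type and 0% for SMAA/EYFP over wild type. Between the transgenic groups 0.0466% passed, and for both transgenic groups over wild type 0.00222% did. The brightest Cldn3 probe set gave 1.83 ± 0.80 in SMGA/EGFP against wild type (unadjusted p = 0.0380, limma adjusted p = 0.856). In SMAA/EYFP against wild type it was at 0.17 ± 0.80 (limma adjusted p = 0.998). Its difference between SMGA/EGFP and SMAA/EYFP was 1.67 ± 0.93 (adjusted p = 0.706). Over the other 3 probe sets, SMGA/EGFP was at 0.75 to 2.33 against wild type and at 1.26 to 2.997 against SMAA/EYFP, the highest with an unadjusted p of 0.0163 (adjusted p = 0.590). SMAA/EYFP against wild type differed in sign between probe sets, at -0.66, -0.52 and 0.22. Set against the wild-type arrays of its own run, SMGA/EGFP was at 0.92 ± 0.81 (adjusted p = 1.00; 0.0133% of all passed), and without wild type 3 that value was -0.27. These differences are on the log2(intensity + 16) scale, which understates changes at low intensity.

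**Figure D3:**
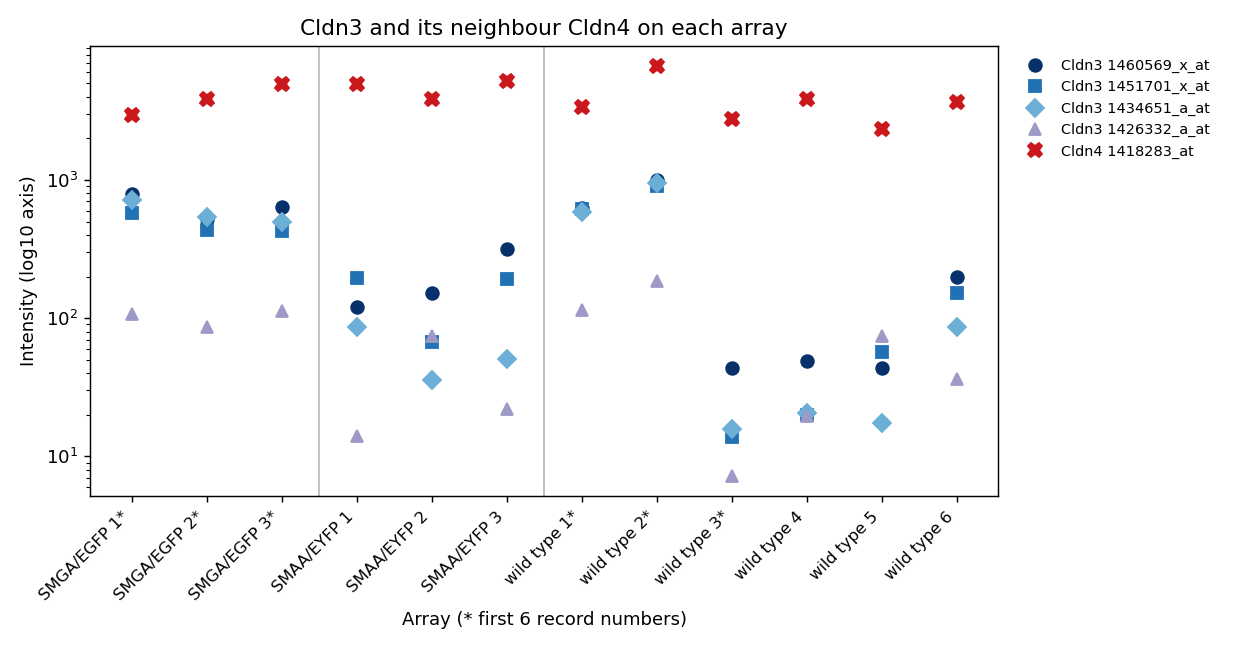
Intensity on a log10 axis of the 4 Cldn3 probe sets and of the Cldn4 probe set on each of the 12 arrays, with the first 6 record numbers starred. The Cldn3 probe sets stand high on the 3 SMGA/EGFP arrays and on wild type 1 and 2 (526 to 1002 for the brightest) and low on the other 7 (43.3 to 318), while Cldn4 stays between 2331 and 6641; the vertical distance between probe sets has no meaning.

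Cldn3 and Cldn4 lie close together on mouse chromosome 5, 39.3 kb apart in RefSeq. Their levels followed each other only loosely (r = 0.50 over 12 arrays, against 0.94 for Cldn4 and Cldn7). Their promoters are shown because the neighbours differed in pattern. Each is 300 bases from RefSeq (GRCm38.p6), 250 before and 50 after the start, 5′ to 3′ on the gene's strand; capitals mark the E-box CAGGTG read on either strand (CACCTG), the sequence that repressors of Cdh1 such as Snai1 and Zeb2 bind.
Cldn3 chr5:134985964-134986263, plus strand: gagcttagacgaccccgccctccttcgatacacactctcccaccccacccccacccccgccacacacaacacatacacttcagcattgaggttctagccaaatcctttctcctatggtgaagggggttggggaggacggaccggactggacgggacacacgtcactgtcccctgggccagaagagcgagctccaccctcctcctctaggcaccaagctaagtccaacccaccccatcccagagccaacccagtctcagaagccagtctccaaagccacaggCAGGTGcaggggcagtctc
Cldn4 chr5:134946885-134947184, minus strand: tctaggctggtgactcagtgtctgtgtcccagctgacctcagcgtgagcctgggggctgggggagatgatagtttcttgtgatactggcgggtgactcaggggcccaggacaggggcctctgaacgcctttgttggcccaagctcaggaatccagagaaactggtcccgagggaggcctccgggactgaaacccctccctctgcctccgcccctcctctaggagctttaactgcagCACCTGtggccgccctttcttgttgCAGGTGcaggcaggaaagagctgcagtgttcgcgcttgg
Epcam chr17:87635729-87636028, plus strand: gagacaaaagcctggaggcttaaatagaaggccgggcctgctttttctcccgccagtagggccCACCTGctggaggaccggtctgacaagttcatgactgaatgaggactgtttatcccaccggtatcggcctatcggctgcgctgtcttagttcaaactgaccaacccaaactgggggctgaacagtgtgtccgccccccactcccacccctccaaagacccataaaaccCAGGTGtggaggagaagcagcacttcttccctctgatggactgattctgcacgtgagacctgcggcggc
Dsp chr13:38151044-38151343, plus strand: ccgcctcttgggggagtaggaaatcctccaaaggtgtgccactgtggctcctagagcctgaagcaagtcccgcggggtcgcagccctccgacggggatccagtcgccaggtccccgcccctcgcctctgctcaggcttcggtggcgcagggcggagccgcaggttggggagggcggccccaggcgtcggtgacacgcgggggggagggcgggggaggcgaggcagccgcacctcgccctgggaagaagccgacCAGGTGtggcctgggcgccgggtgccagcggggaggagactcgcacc
Cldn3 holds the motif at position 31 after the start, Cldn4 at -14 and 11, Epcam at -187 and -19, and Dsp at 3; Epcam and Dsp are shown as members that moved together over the arrays (r = 0.89). Promoter sequences were found for 7 of the 10 members in 10 windows, not for Cldn8, Cdh1 and Pkp1. The motif was in 9 of the 10 windows and in at least 1 window of each of the 7 genes, and in 20.2% of all 32851 mouse windows of the same length. Windows of 1 gene can overlap, and a match describes the letters only. The motif AACNNGTT, bound by grainyhead factors, was in none of the 10 windows and in 4.20% of all, TATAAA was in none and in 13.6% of all, and GGGCGG was in 7 windows and in 35.7% of all; all were read on both strands.

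Within wild type, the 2 runs were compared in the same way. In wild type of the first 6 record numbers against wild type of the last 6 (n = 3 each), 7 of 9 genes were higher, with a median log2 difference of 0.20 and a range of -0.15 to 0.74. Of the 13 probe sets 0 passed (0% of all; limma) and 1 had an unadjusted p under 0.05, where 8.16% of all did: Pkp1, at 0.74 ± 0.32 (adjusted p = 0.604). Cldn3, without the filter, was at 1.82 ± 0.81 (adjusted p = 0.613; 0.00222% of all passed). Single arrays moved the median: it was 0.03 without wild type 2 (5 genes higher), 0.05 without wild type 5, 0.06 without wild type 1, 0.35 without wild type 4 and 0.44 without wild type 3. Without wild type 3, 430 of 22518 probe sets passed (1.91%), and Cldn3, at 3.01, was the 1 member among them. Cldn3 reached the filter only because that dim array was left out. With no filter and without wild type 3, it also passed, at 3.01 (limma adjusted p = 0.0315). Both calls depend on leaving out that array, which was singled out after its values were seen, and are given as a description. Pkp1 was then at 1.13 ± 0.27 and Epcam at 0.64 ± 0.17, neither past the threshold.

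Matched to wild type of the same run, the transgenic groups kept the sign of most differences and 0 of 13 probe sets passed in either (limma; 0.0444% of all in SMGA/EGFP and 0% in SMAA/EYFP). SMGA/EGFP against wild type 1 to 3 had 7 of 9 genes higher and a median of 0.08, from -0.06 to 0.28, with 0 unadjusted p under 0.05, where 2.98% of all had one. SMAA/EYFP against wild type 4 to 6 had 9 of 9 higher and a median of 0.32, from 0.15 to 0.61, again with 0, where 4.39% of all had one. The difference of these 2 differences, which share no arrays, had a median of -0.26 and passed for 0 of 13 (0.00888% of all), with 0 unadjusted p under 0.05, where 2.70% of all had one. That median was -0.02 without wild type 5 (5 of 9 genes then higher, against 1) or without wild type 2, -0.12 without SMGA/EGFP 1 and -0.44 without wild type 3. Cldn4 was furthest, at -0.58 ± 0.41 (interval -1.47 to 0.31).

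The members varied together over the arrays, with markers of the urothelium and of other cell types. A score for each array, the mean log2 deviation of the 9 tested genes from their means, was -0.13, 0.18 and 0.26 in SMGA/EGFP, 0.05, 0.11 and 0.23 in SMAA/EYFP, and -0.53 to 0.32 with a median of -0.07 in wild type. Wild type 5 was the lowest array for 6 of the 10 members and wild type 3 for 3, wild type 2 the highest for 5. The same score over 15 urothelium markers, keratins, uroplakins and transcription factors that are not members, was -0.18, 0.17 and 0.15 in SMGA/EGFP, 0.09, 0.21 and 0.23 in SMAA/EYFP, and -0.41 to 0.14 with a median of -0.13 in wild type. Of these 15 markers, 14 lay above wild type in SMGA/EGFP (median 0.16) and 15 in SMAA/EYFP (median 0.28), with 0 past the threshold (limma). At an unadjusted p under 0.05 were 0 and 7 of them, where 6.94% and 4.81% of all tested probe sets were. Of all 22518, 10607 and 11430 lay above wild type. The 2 scores correlated at r = 0.92 (rho = 0.85, n = 12), at 0.82 without the 2 arrays farthest from the median urothelium score, and at 0.92 and 0.98 within the first and last 6 record numbers. They come from the same arrays and normalisation. The junction score also followed 4 genes listed as skin markers, Krt15, Krt14, Krt10 and Lor (r = 0.78, rho = 0.86), over the same 12 arrays. Of these, Krt15 and Krt14 are not specific to skin, so this score is not one of skin alone. The junction score ran opposite to 7 endothelium markers (r = -0.74, rho = -0.77) and 7 smooth muscle markers (r = -0.74, rho = -0.75). The smooth muscle score was -0.13 to 0.17 in SMGA/EGFP, -0.11 to 0.11 in SMAA/EYFP and -0.14 to 0.15 in wild type. The part of these cell types in the members' values was not tested.

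**Figure D4:**
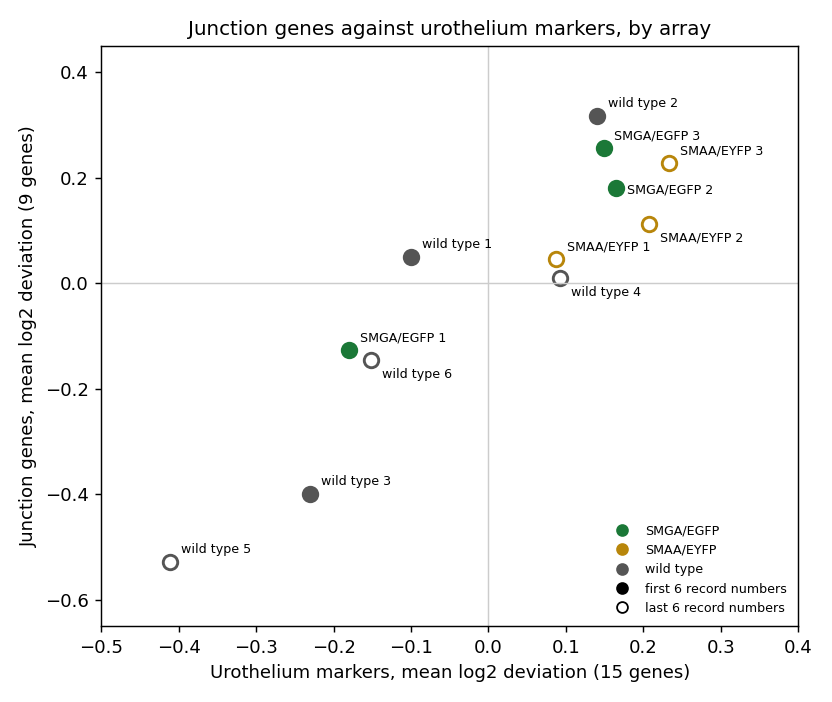
Mean log2 deviation of the 9 tested junction genes against that of 15 urothelium markers on each array, with filled points for the first 6 record numbers and open points for the last 6. The arrays lie along a diagonal, from wild type 5 at -0.53 on the junction axis to wild type 2 at 0.32, with the transgenic arrays inside that range.

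Subtracting each array's urothelium score from the members narrowed the spread of all 10 over the 12 arrays, by different amounts. The SD of Cldn4 was 0.28 after and 0.42 before, that of Epcam 0.22 and 0.32, and that of Pkp1 0.44 and 0.56. Cldn3 hardly moved, at 1.42 after and 1.49 before. After the subtraction, the difference of SMGA/EGFP from wild type lay between -0.06 and 0.10 for all members but Pkp1, at 0.49, and Cldn3, at 1.68. In SMAA/EYFP it lay between -0.23 and 0.22 for all 10. These are descriptions without a test.

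Pairs of members ran from closely linked to unrelated. Over the 45 pairs the median r was 0.61, from -0.02 for Cldn7 and Cldn8 to 0.97 for Epcam and Pkp1. Cldn8 stood apart, with a median of 0.25 to the other 9 and its best match in Cdh1 (r = 0.72). Cldn3 was nearest to Pkp1 (0.87) and Epcam (0.83) and unrelated to Cldn8 (-0.01). Dsp and Ocln were at 0.86. Outside the set, of 11721 genes compared, the main probe sets most like Cldn4 were Hook2, the basal keratin Krt5 and the ephrin receptor Epha1 (r = 0.94 each), and those most like Cldn7 were the keratin Krt19 (0.95), S100a14 and Fbxl14 (0.94 each). Epcam was nearest to the carbonic anhydrase Car12 (0.96), Lonrf1 (0.94) and Fam160a1 (0.93), and Pkp1 to F11r, the tight junction adhesion molecule JAM-A (0.97), Lonrf1 (0.96) and Dusp16 (0.94). Cldn8 was nearest to Chmp1b (0.96), the pericyte gene Rgs5 (0.95) and Gm16136 (0.93), and Tjp3 to the purine synthesis enzyme Paics (0.96), Hacd4 (0.92) and Tmem205 (0.89). Ocln was nearest to the histone methyltransferase Ezh2 (0.92), Runx1 (0.91) and Exph5 (0.90), Dsp to the kinesin Kif21a (0.94), Ptpn3 and Pmaip1 (0.91 each), and Cdh1 to Kctd2 (0.89), Ap1s3 and Hoxa9 (0.88 each). All of these r are over the same 12 arrays and were the highest of many.

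Other genes were set beside Cldn3 after its values were seen. Lor, the cornified envelope protein loricrin, had intensities of 505, 636 and 908 in SMGA/EGFP, 200.1, 272 and 317 in SMAA/EYFP, 988, 1180.3 and 223 in wild type 1 to 3, and 315, 354 and 343 in wild type 4 to 6. Cldn6, a claudin of embryonic epithelia, had 185, 158 and 323 in SMGA/EGFP, 147, 18.9 and 33.2 in SMAA/EYFP, 358, 386 and 57.1 in wild type 1 to 3, and 117, 125 and 132 in wild type 4 to 6. In both, wild type 3 lay well below wild type 1 and 2, as it did for Cldn3. Vil1, a gut marker that did not reach the filter, was also highest on the arrays where Cldn3 was. It had 89.3, 103 and 123 in SMGA/EGFP and 13.6, 3.09 and 8.02 in SMAA/EYFP. In wild type 1 to 3 it had 124, 140 and 12.55, and in wild type 4 to 6 it had 16.6, 42.5 and 73.5. Cldn11, a claudin of myelin and the testis that passed the filter, followed the same arrays, with 887, 655 and 754 in SMGA/EGFP, 127, 125 and 188 in SMAA/EYFP, 926, 831 and 129 in wild type 1 to 3, and 104, 53.1 and 42.4 in wild type 4 to 6. On the log2 scale SMGA/EGFP was at 1.95 ± 0.76 over wild type (unadjusted p = 0.0224, limma adjusted p = 0.712) and SMAA/EYFP at -0.25 ± 0.76 (adjusted p = 0.995). Wild type of the first run over wild type of the last was at 2.65 ± 0.52 (unadjusted p = 0.000200, adjusted p = 0.441), which did not pass. Cdh16, a cadherin of kidney and Wolffian duct epithelium, was at 878, 31.6 and 819.7 in SMGA/EGFP, 34.0, 252 and 135 in SMAA/EYFP, 1546, 729 and 249.8 in wild type 1 to 3, and 134, 33.5 and 42.2 in wild type 4 to 6, so SMGA/EGFP 2 broke the pattern. Pax8, a transcription factor of the same duct, was at 246, 118 and 106 in SMGA/EGFP and 94.9, 85.7 and 47.7 in SMAA/EYFP. It was at 251, 224 and 76.1 in wild type 1 to 3, and 113, 95.25 and 52.8 in wild type 4 to 6. Hoxb13, listed with Cdh16 and Pax8 as a marker of prostate and Wolffian duct, had 297, 331 and 363 in SMGA/EGFP. It had 174, 261 and 309 in SMAA/EYFP, 342, 365 and 102 in wild type 1 to 3, and 265, 261 and 151 in wild type 4 to 6.

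Scores of other cell types moved with Cldn3 too, and their part in its pattern was not tested. Of 5 neuron markers, 5 were above wild type in SMGA/EGFP (median 1.18) and 4 in SMAA/EYFP (median 0.06), with 0 past the threshold (limma; 0 at an unadjusted p under 0.05). Against wild type of the same run, the neuron medians were 0.13 in SMGA/EGFP (3 of 5 higher) and 1.00 in SMAA/EYFP (5 of 5 higher). The order of the 2 groups thus depended on which wild-type arrays were used. At an unadjusted p under 0.05 (limma) in these matched comparisons were 0 neuron markers in SMGA/EGFP and 2 in SMAA/EYFP, where 2.98% and 4.39% of all tested probe sets were. In wild type of the first run over the last, the neuron median was 2.11, with 5 of 5 higher. Of these 5, 4 had an unadjusted p under 0.05 (limma), where 8.16% of all had one, and 0 passed. The neuron score was 0.56, 1.30 and 0.52 in SMGA/EGFP, -1.18, -0.32 and 0.93 in SMAA/EYFP, 1.48, 0.92 and -0.31 in wild type 1 to 3, and -0.94, -1.63 and -1.33 in wild type 4 to 6. It correlated with Cldn3 at r = 0.80 (n = 12), against 0.38 for the urothelium score and -0.67 for 6 mesothelium markers. Of the mesothelium markers, 6 of 6 were lower in SMGA/EGFP than in wild type, as were 11911 of all 22518 tested probe sets. The brightest of the 6 was the uroplakin Upk3b, at 13672 to 25457, which differed least, at a log2 difference of -0.13. Of these markers 3 passed (Gpm6a, Lrrn4 and Muc16), where 0.0622% of all did. Mesothelium scores were -1.45 to -1.15 in SMGA/EGFP, 0.43 to 1.24 in SMAA/EYFP and -0.14 to 0.75 in wild type. Of the skin markers, 0 of the 4 tested passed in SMGA/EGFP (limma; 0 at an unadjusted p under 0.05), with Lor among them.

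In the rest of the junction machinery, 0 genes of any list passed in SMGA/EGFP or SMAA/EYFP (limma), where 0.0622% and 0% of all 22518 probe sets did. Of all, 6.94% and 4.81% had an unadjusted p under 0.05, and 10607 and 11430 lay above wild type. These shares are the background for the lists below as well. Of 25 other tight junction genes tested, 20 were above wild type in SMGA/EGFP (median 0.19; 6 at an unadjusted p under 0.05) and 20 in SMAA/EYFP (median 0.13; 4). The spread in SMGA/EGFP was wider than among the members, from -1.06 for Cldn15 to 1.95 for Cldn11. Amotl1, an angiomotin at tight junctions, had intensities of 11993, 11419 and 11581 in SMGA/EGFP and 9239 to 9814 in wild type without overlap, a difference of 0.30 ± 0.07 (adjusted p = 0.330). Cldn15, a claudin that forms sodium pores in the gut, had intensities of 339, 243 and 259 in SMGA/EGFP. It had 383, 457 and 562 in wild type 1 to 3, and 704, 695 and 715 in wild type 4 to 6. Against all wild type the difference was -1.06 ± 0.24 (limma adjusted p = 0.351). Against wild type of the same run, the 25 genes ran from -0.72 to 0.62 in SMGA/EGFP. The mesothelium markers were lower in SMGA/EGFP too, and their part in the Cldn15 difference was not tested. Pard3, which sets cell polarity, was at 0.32 ± 0.10 in SMGA/EGFP (adjusted p = 0.680). In SMAA/EYFP the smallest p belonged to Marveld3, a relative of occludin (0.52 ± 0.17), the junction adaptor cingulin, Cgn (0.57 ± 0.21), and the polarity scaffold Patj (0.33 ± 0.13), each at adjusted p = 0.991.

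Other adherens junction genes did not lean one way: of 12 tested, 5 were higher and 7 lower in each transgenic group than in wild type, with medians of -0.01 (1 at an unadjusted p under 0.05 in SMGA/EGFP, 0 in SMAA/EYFP). Ctnna1, alpha-catenin, was at -0.19 ± 0.07 in SMGA/EGFP (adjusted p = 0.706), P-cadherin, Cdh3, at -0.31 ± 0.18 and afadin, Afdn, at -0.14 ± 0.10. In SMAA/EYFP, Ctnnbip1, an inhibitor of beta-catenin, was at -0.25 ± 0.12, vinculin, Vcl, at -0.12 ± 0.06 and Nectin4 at 0.27 ± 0.17. Of 8 other desmosome genes, 7 lay above wild type in SMGA/EGFP (median 0.11; 0 at an unadjusted p under 0.05) and 6 in SMAA/EYFP (median 0.19; 2). The plakins Evpl and Ppl, which are envelope and desmosome linkers, were at 0.20 ± 0.16 and 0.14 ± 0.14 in SMGA/EGFP and at 0.37 ± 0.16 and 0.31 ± 0.14 in SMAA/EYFP. Pkp3 was at 0.19 ± 0.19 in SMGA/EGFP and Pkp2, the plakophilin of simple epithelia and heart, at -0.25 ± 0.15 in SMAA/EYFP.

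Regulators of the epithelial state, among them transcription and splicing factors and protease inhibitors, lay mostly above wild type. Cadherin repressors lay mostly below, with 0 of either list past the threshold. Of 18 epithelial regulators, 16 were above wild type in SMGA/EGFP (median 0.23; 2 at an unadjusted p under 0.05) and 15 in SMAA/EYFP (median 0.24; 4). Klf5, a transcription factor of urothelial maturation, was at 0.45 ± 0.20 in SMGA/EGFP and the protease inhibitor Spint1, which guards epithelial integrity, at 0.30 ± 0.13 (adjusted p = 0.718 each). Rab25, an epithelial trafficking GTPase, was at 0.32 ± 0.16 in SMGA/EGFP and 0.41 ± 0.16 in SMAA/EYFP. The protease inhibitor Spint2 and the splicing factor Esrp2 were at 0.22 ± 0.08 and 0.29 ± 0.11 in SMAA/EYFP. Of 6 repressors of E-cadherin, 5 were below wild type in each transgenic group, with medians of -0.22 in SMGA/EGFP and -0.17 in SMAA/EYFP (1 at an unadjusted p under 0.05 in each). Twist1 was at -0.39 ± 0.18, Twist2 at -0.22 ± 0.12 and Snai1 at -0.44 ± 0.28 in SMGA/EGFP. In SMAA/EYFP Twist2 had intensities of 1882, 1887 and 1990.1, against 2254 to 2744 in wild type, a difference of -0.38 ± 0.12 (adjusted p = 0.991), with Twist1 at -0.30 ± 0.18 and Zeb2 at -0.28 ± 0.20. The Twist and Zeb factors are known mainly from mesenchymal cells. The endothelium markers, 7 of 7 lower in each transgenic group (medians -0.22 in SMGA/EGFP and -0.23 in SMAA/EYFP; 0 passed), were lower as well, and their part was not tested.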

How the data were processed

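RNA of 12 whole bladders at postnatal day 1 (3 SMGA/EGFP, 3 SMAA/EYFP, 6 wild type) was RNeasy-purified, biotin-labelled and amplified once, per the labels. The authors deposited linear intensity values per probe set made with GCOS, per the submitters' processing notes; the version is not given in the sources used here, nor are detection calls. The trimmed mean was 1500.01 on every array, median intensity was 229 to 306, and 8.35% to 10.6% of values lay below 16.

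The members and lists were chosen with earlier results of these data known. After 64 controls were removed, log2(intensity + 16) values were quantile-normalised, and the 22518 probe sets with a mean above the median of all means were tested with limma 3.58.1 in R 4.3.3. The fit used lmFit and eBayes with trend, two-sided, all 12 arrays in 3 groups, and Benjamini-Hochberg adjustment at 0.05; 12 arrays in 4 groups served the record-number comparisons. Replicates were numbered in accession order, and nothing pairs them. The labels do not name litters, so p-values measure the spread between these samples. The fit was tested on simulated data. Gene symbols are those of the platform's annotation at GEO, checked against RefSeq through Entrez numbers (0 changed). Of the probe sets, 34945 had 1 symbol, 932 several and 9160 were not listed. Where a gene had several probe sets, the one with the highest mean is its main one.

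The named genes were all members and the 3 genes most alike to each tested member. From each other junction or regulator list came the 3 genes of smallest p in each comparison with wild type. From the urothelium, skin, gut, and prostate and Wolffian duct lists came up to 3 brightest genes, and from the mesothelium list those that passed. The endothelium, smooth muscle and neuron lists were given as scores or medians without naming genes. Lor, Cldn6, Cldn11, Flg, Cdx1, Vil1, Upk3b and the sex-linked genes were added after their values were seen. Alternatives were no quantile normalisation, median centring, pseudocounts of 1 and 64, no filter or the 75th percentile, eBayes without trend or robust, array weights, only the groups compared, the record-number run as a term, matched wild type, 1 probe set per gene, and each array left out. The alternatives for wild type between runs, for the difference of the matched differences and for Cldn3 without a filter were chosen after seeing the data.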

Additional observations from a re-analysis of the deposited data

How the results depend on the processing

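The count of member probe sets past the threshold was 0 in SMGA/EGFP and SMAA/EYFP against wild type under 25 alternatives each, and 0 between the transgenic groups and for both together under 23 each. In wild type of the first 6 against the last 6 record numbers it was 0 to 1 when 1 array was left out (1 without wild type replicate 3, Cldn3) and 0 otherwise. The median log2 difference of the members was 0.08 to 0.34 in SMGA/EGFP and 0.06 to 0.32 in SMAA/EYFP against wild type over all alternatives, lowest in SMGA/EGFP with the record-number run as a term and in SMAA/EYFP without wild type 5. Between the wild-type runs it was 0.03 to 0.44, and for the difference of the matched differences -0.44 to -0.02. Between SMGA/EGFP and SMAA/EYFP it was -0.13 to 0.10, negative in 5 of 23 alternatives. When 1 array was left out, 6 to 10 members lay above wild type in SMGA/EGFP, against 9, lowest without SMGA/EGFP 3. In SMAA/EYFP 8 to 10 did, against 9. Cldn4 in SMGA/EGFP against wild type was negative in 4 of 25 alternatives, down to -0.07 without SMGA/EGFP 3. Pkp1 was at 0.28 in SMGA/EGFP with the run as a term, against 0.65, and 0.87 with array weights; in SMAA/EYFP it was 0.61 with the run and 0.03 without wild type 5. The count over all probe sets in SMGA/EGFP against wild type was 5 to 20, against 14, in SMAA/EYFP 0 to 5, against 0, between the transgenic groups 4 to 26, against 18, for both over wild type 0 to 3, against 1, and within wild type 0 to 430, against 0. No paired analysis was possible because the labels give no replicate numbers. Cldn3 in SMGA/EGFP over wild type, without a filter, was 1.52 to 2.33 when 1 array was left out.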
